A study of Mus musculus with 6 samples.

Results

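The heat shock chaperone genes Hsp90aa1, Hsp90ab1, Hspa8, Hspa1b, Hspa4, Hspa4l, Hsph1, Dnajb1 and Hspb1 and their transcriptional activator Hsf1 were followed in mouse AML12 hepatocytes with and without a static magnetic field. The 10 genes were chosen by name, and each matched 1 Ensembl identifier among the 23886 in the deposited files. They were grouped as constitutive chaperones (Hspa8, Hsp90ab1 and Hspa4), inducible chaperones (Hspa1b, Hsp90aa1, Hspa4l, Hsph1, Dnajb1 and Hspb1) and the regulator Hsf1. The test was limited to genes with 1 FPKM or more in 3 or more libraries, which 8 of the 10 met. FPKM is the number of fragments scaled to the length of the gene and the total of the library. Hspa1b and Hspb1 did not meet that filter.

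HSP70 and HSP90 chaperones bind unfolded protein chains and release them on a cycle of ATP hydrolysis, with J-proteins starting the cycle of the HSP70 proteins and HSP110 proteins closing it by exchanging the nucleotide. In unstressed cells HSF1 is held inactive by chaperones. Unfolded protein draws them away, and HSF1 then forms trimers, binds heat shock elements in promoters and raises the inducible chaperones, while constitutive members such as Hspa8 and Hsp90ab1 serve the cell at all times. In liver these proteins fold the large output of secreted and metabolic proteins and hold steroid receptors ready to bind hormone.

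AML12 is an established line of mouse hepatocytes, derived from animals that carry a transgene for human transforming growth factor alpha, and the series describes the cells as wild type. Poly(A) RNA was sequenced in 6 libraries: Control 2, 3 and 4 had no treatment, and SMF 1, 2 and 3 had a static magnetic field. The sources used here do not give field strength, exposure time or temperature during exposure. The comparison asks whether exposed cells carry more or less chaperone mRNA than untreated ones. Nothing says that the libraries came from separate cultures, so p-values measure the spread between these libraries, which may be technical. Library totals were 15514530 to 18200516 reads and overlapped between the groups. The summed FPKM of all genes did not overlap, at 298090 to 300004 in control and 301951 to 309514 in SMF libraries. Of 12 hepatocyte markers, 11 had a mean of at least 1 FPKM, the exception being Apoa1. The epithelial keratins Krt8 and Krt18 summed to 3395 to 3609 FPKM in control and 3585 to 3791 in SMF libraries. The other 10 markers summed to 347 to 376 and 363 to 383 FPKM, with the secreted proteins Alb at a mean of 29.8 and Afp at 1.53 FPKM. Summed markers of immune, endothelial and stellate cells each stayed at or below 4.78 FPKM. In such bulk samples, fewer cells that hold a transcript and less of it per cell cannot be told apart.

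The levels per gene length set the members in a steep order that all 6 libraries shared in its main steps. Hsp90ab1, the constitutive cytosolic HSP90, had by far the most mRNA, with a mean over all libraries of 1418 FPKM (SD 16, range 1402 to 1441). Hspa8, the constitutive HSC70, followed at 203 FPKM (range 195 to 211), a factor of 6.98 lower. Hspa4, an HSP110 nucleotide exchange factor, and Hsp90aa1, the inducible HSP90, stood side by side at 80.5 and 78.2 FPKM. Their ranges overlapped, with Hspa4 the higher in 4 of 6 libraries. Hspa4l, a further HSP110 gene, had 26.3 FPKM and Dnajb1, the J-protein HSP40, had 23.6 FPKM, and these neighbours overlapped too, with Hspa4l ahead in 5 of 6 libraries. Hsph1, the third HSP110 gene, at 14.99 FPKM could likewise not be separated by its range from Hsf1 at 14.2 FPKM. Hspa1b and Hspb1 closed the order at a mean of 0.044 and at 0 FPKM. A gap with no overlap lay below Hsp90ab1, below Hspa8, below Hsp90aa1, below Dnajb1 and below Hsf1. FPKM divides by the whole gene model, which for Hsf1 has 7099 bases against 2104 in its longest coding transcript. For Hspa8 these lengths are 4301 and 2394 bases, and for Hsp90ab1 2999 and 2520. The order and its factors depend on that choice of length, and an order by transcript length was not computed.

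**Figure D1:**
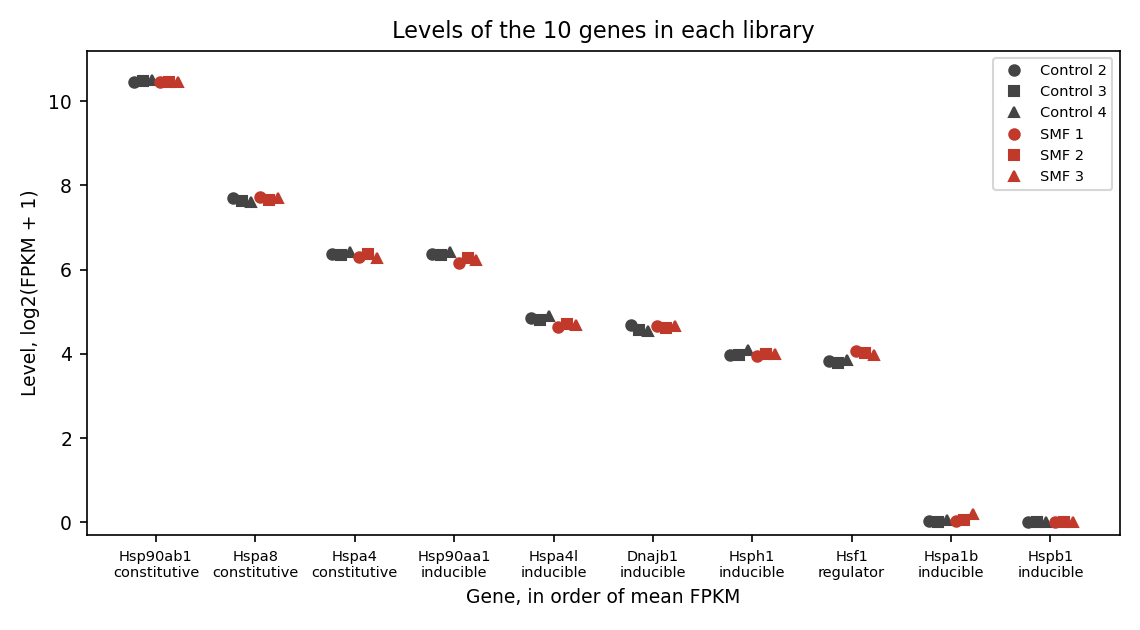
Level of the 10 heat shock genes as log2(FPKM + 1) in each of the 3 Control (grey) and 3 SMF (red) libraries, with genes in order of mean FPKM and their class below. Hsp90ab1 is highest (1418 FPKM), 8 genes stand well above 0, and Hspa1b and Hspb1 lie at or near 0 in both groups.

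No member passed the test for a difference between SMF and control libraries. By limma on log2(FPKM + 1) with Benjamini-Hochberg adjustment over all 11114 tested genes, 0 of the 8 tested members had an adjusted p under 0.05, where the share called among all genes was 0%. At an unadjusted p under 0.05 the count was 3 of 8 members and 1998 of 11114 genes (18%). An alternative test, limma-voom on read numbers recovered from the FPKM, called 1 member higher in SMF (Hsf1) and 2 lower (Hsp90aa1 and Hspa4l), against 4.26% of all genes called. With a correction of each library for GC content and gene length, a combination chosen after seeing the data, limma-voom called only Hsf1 among the members, against 0.841% of all genes. The 3 genes are also those of the 8 whose FPKM ranges did not overlap between the groups, which held for 23.7% of all tested genes. Leaving out Control 2 raised that count to 6 of 8, where groups of 2 and 3 libraries did not overlap for 33.5% of all tested genes. The median log2 difference of the 8 members was -0.03, beside -0.01 over all tested genes. Of these 8, 3 lay above 0 and 5 below.

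Hsf1 (ENSMUSG00000022556) encodes the master transcription factor of the heat shock response. Its level was 13.1, 12.8 and 13.4 FPKM in Control 2, 3 and 4, and 15.8, 15.2 and 14.8 FPKM in SMF 1, 2 and 3. Every SMF library was above every control library. The means were 13.1 ± 0.28 and 15.3 ± 0.46 FPKM (SD, n = 3 each), 16.4% higher in SMF. On the log2(FPKM + 1) scale, which understates changes of low genes, the difference was 0.20 (SE 0.044, 95% confidence interval 0.10 to 0.31) and did not pass (limma, adjusted p = 0.147). By limma-voom it was 0.22 (adjusted p = 0.0218), and with the GC content and length correction 0.22 again (limma-voom, adjusted p = 0.0281). The uncorrected limma-voom call was lost without Control 2, Control 3, Control 4, SMF 1 or SMF 3 in turn (adjusted p 0.0565 to 0.119) and held without SMF 2 (adjusted p = 0.00921). With the correction it was likewise lost without any of those 5 (adjusted p 0.0572 to 0.142) and held without SMF 2 (adjusted p = 0.0198). The log2 difference stayed between 0.20 and 0.24 in the uncorrected refits. Behind these values stood 1547, 1658 and 1618 reads in the control and 1735, 1864 and 1893 in the SMF libraries, and a library of that depth carries a counting error of about 2.41%.

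Of the HSP90 pair, the constitutive gene overlapped between the groups and the inducible gene did not, and neither passed in limma. Hsp90ab1 (ENSMUSG00000023944) had 1406, 1434 and 1441 FPKM in the control and 1402, 1417 and 1408 FPKM in the SMF libraries. The groups overlapped, with means of 1427 ± 18.6 and 1409 ± 7.73 FPKM (SD, n = 3). Its log2 difference was -0.02 (limma, adjusted p = 0.772), with a 95% confidence interval of -0.09 to 0.05. With the GC content and length correction it was -0.05 (limma-voom, adjusted p = 0.444). Hsp90aa1 (ENSMUSG00000021270) had 82.4, 80.1 and 84.8 FPKM in the control and 70.6, 76.6 and 74.6 FPKM in the SMF libraries. All 3 SMF libraries lay below all controls, and SMF 1 was the lowest. The mean was 10.3% lower, at 73.9 ± 3.05 against 82.4 ± 2.34 FPKM, a log2 difference of -0.16 (SE 0.042) that did not pass in limma (adjusted p = 0.165). Limma-voom called it (adjusted p = 0.0354), but not with the GC content and length correction, where the log2 difference was -0.09 (limma-voom, adjusted p = 0.245). The call was also lost without Control 2, Control 4, SMF 1 or SMF 3. Within each library, Hsp90aa1 made up 5.46% ± 0.15 of the summed HSP90 FPKM in controls and 4.98% ± 0.17 in SMF libraries, with no overlap (SD, n = 3). That share carries no GC content and length correction. Among single tested genes 23.7% did not overlap, and for shares within other pairs this was not computed.

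**Figure D2:**
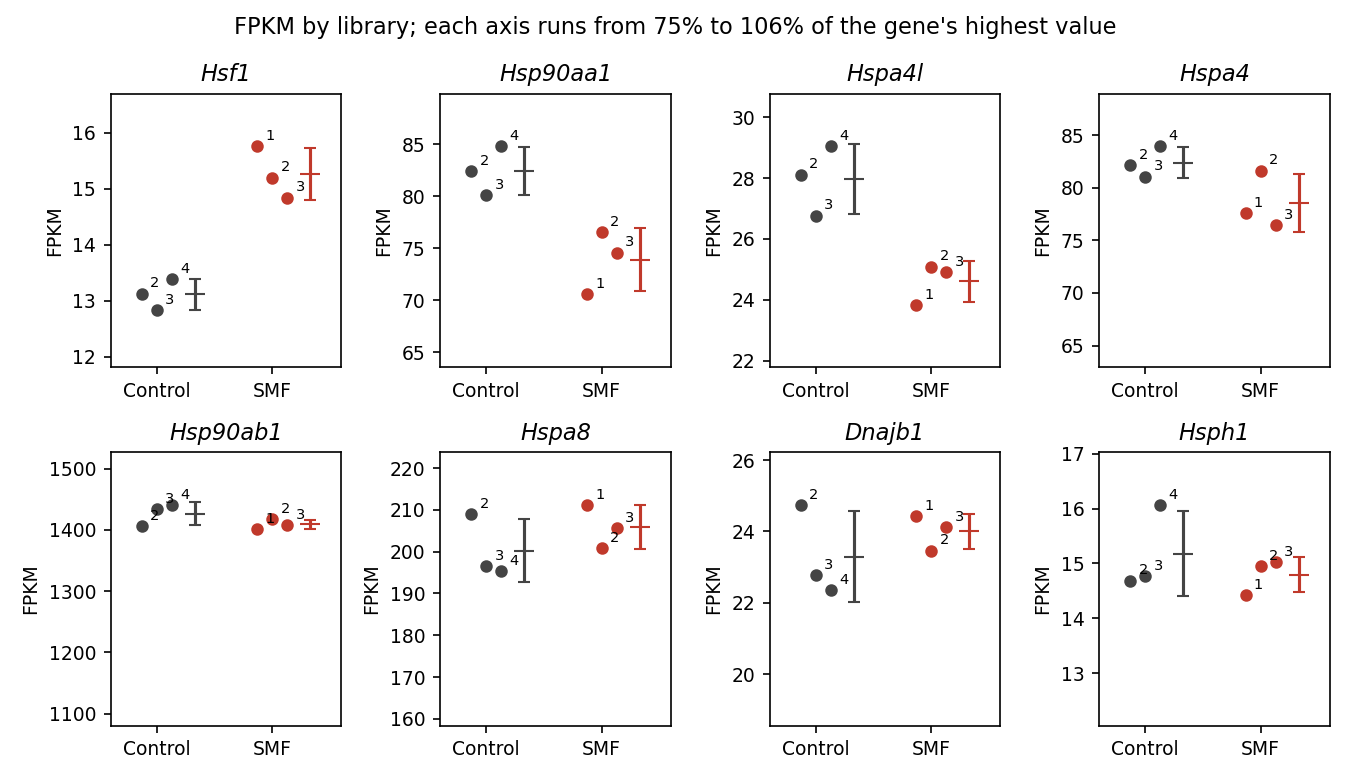
FPKM of the 8 tested members in each numbered library, 1 panel per gene, with bars for mean ± SD (n = 3); each axis starts above 0 and runs over the same relative range. SMF libraries are all higher for Hsf1 and all lower for Hsp90aa1 and Hspa4l, and the groups of the other 5 genes overlap.

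The HSP110 genes Hspa4, Hspa4l and Hsph1 encode the exchange factors that release ADP from HSP70. Hspa4l (ENSMUSG00000025757) had 28.1, 26.8 and 29.0 FPKM in the control and 23.8, 25.1 and 24.9 FPKM in the SMF libraries. The groups were apart, and the SMF mean of 24.6 ± 0.68 FPKM was 12% lower than the control mean of 28.0 ± 1.14 FPKM. The log2 difference was -0.18 (SE 0.045; limma, adjusted p = 0.164), and limma-voom gave -0.18 (adjusted p = 0.0186). With the GC content and length correction it shrank to -0.03 (limma-voom, adjusted p = 0.786). The uncorrected limma-voom call was lost without Control 2, Control 4, SMF 1 or SMF 3. Hspa4l has a long, AT-rich gene model of 11501 bases with 39.5% GC, Hsp90aa1 has 3931 bases with 43.7% GC, and Hsf1 has 7099 bases with 53.4% GC. Across all tested genes the log2 difference moved with length: its median was 0.06 in genes with models of up to 2488 bases and -0.07 in those of 6591 bases or more. The part of this trend in the Hspa4l and Hsp90aa1 values was tested only through the correction.

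Hspa4 (ENSMUSG00000020361) had 82.2, 81.1 and 83.9 FPKM in the control and 77.6, 81.6 and 76.4 FPKM in the SMF libraries. SMF 2 lay inside the control range. The log2 difference of -0.07 had a 95% confidence interval of -0.16 to 0.02 (limma, adjusted p = 0.369). Within each library the ratio of Hspa4 to Hspa4l was 2.95 ± 0.072 in control and 3.19 ± 0.107 in SMF libraries (SD, n = 3), without overlap. The ratio carries no GC content and length correction, with which the log2 differences in limma were -0.02 for Hspa4 and -0.06 for Hspa4l. Single genes did not overlap in 23.7% of those tested, and for ratios of other genes this share was not computed. Hsph1 (ENSMUSG00000029657) had 14.7, 14.8 and 16.1 FPKM in the control and 14.4, 14.95 and 15.02 FPKM in the SMF libraries, and only Control 4 stood above the rest. Its difference of -0.03 (limma, adjusted p = 0.738) turned above 0 under the GC content and length correction, with the replicate number as a block, and without Control 4.

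Hspa8 and its J-protein partner Dnajb1 overlapped between the groups. Hspa8 (ENSMUSG00000015656) had 209, 196 and 195 FPKM in the control and 211, 201 and 206 FPKM in the SMF libraries, with Control 2 and SMF 1 the highest. The means were 200.2 ± 7.55 and 206 ± 5.16 FPKM, a log2 difference of 0.04 with a 95% confidence interval of -0.05 to 0.13 (limma, adjusted p = 0.60). Quantile normalization turned that difference to -0.02. Dnajb1 (ENSMUSG00000005483) had 24.7, 22.8 and 22.4 FPKM in the control and 24.4, 23.5 and 24.1 FPKM in the SMF libraries. Control 2 and SMF 1 were again the highest of their groups, and the difference was 0.04 (limma, adjusted p = 0.658). The ratio of Hspa8 to Dnajb1 kept to 8.44 to 8.73 in all 6 libraries.

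How far a read can be assigned to Hspa8, Hspa1b, Hspb1 or Hsp90aa1 depends on near-identical genes. In the GENCODE M21 transcripts, 63.4% of the 100-base windows of Hspa8, 49.9% of Hspa1b, 47.6% of Hsp90aa1 and 42.7% of Hspb1 occur without a mismatch in a transcript of another gene. The share at 100 bases was 0% for Hsp90ab1, Hspa4, Hspa4l, Hsph1, Dnajb1 and Hsf1. With windows of 50 bases it was 4.49% for Hsp90ab1, 0.63% for Hspa4l and 0.44% for Dnajb1, and still 0% for Hspa4, Hsph1 and Hsf1. Only annotated transcripts were searched, and the sources used here do not give how reads with several matches were handled. The stretches below, 60 coding bases each from that annotation, are examples of places where member and copy differ. Each is the one nearest the middle of the coding sequence where a copy differs at few bases but at least 1. For Hspb1 that was at coding bases 4 to 63. Picked in this way, the stretches do not measure how close the copies are over their whole length. Each is written in the sense of the member, and capitals mark the single base that differs within the stretch.
Hspa8: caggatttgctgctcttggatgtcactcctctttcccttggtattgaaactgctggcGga
Gm15459: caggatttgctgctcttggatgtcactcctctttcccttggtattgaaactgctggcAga
Hspa1b: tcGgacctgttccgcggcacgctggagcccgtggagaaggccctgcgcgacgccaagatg
Hspa1a: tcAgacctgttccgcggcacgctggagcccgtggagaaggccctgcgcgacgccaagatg
Hspb1: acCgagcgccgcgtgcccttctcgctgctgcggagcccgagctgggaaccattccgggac
Hsp25-ps1: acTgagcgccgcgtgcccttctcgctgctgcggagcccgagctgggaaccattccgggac

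Gm15459, a processed pseudogene of Hspa8 that was named after its values were seen, was listed at 169 to 186 FPKM and held 27.7% to 29.4% of the reads assigned to both genes. Adding its reads to those of Hspa8 gave 1201 ± 40.7 RPM (reads scaled to the library total) in control and 1238 ± 25 in SMF libraries (SD, n = 3), and the groups still overlapped. Gm12346, which shares 39.6% of the windows of Hsp90aa1, stood at no more than 0.427 FPKM. The low values of Hspa1b and Hspb1 are values of assigned reads, and reads that were dropped or given to a copy would not show in them. Whether that happened was not tested. The levels of Hsp25-ps1 and of Gm9817, a gene model annotated on the opposite strand over the same copy, are not analysed here.

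**Figure D3:**
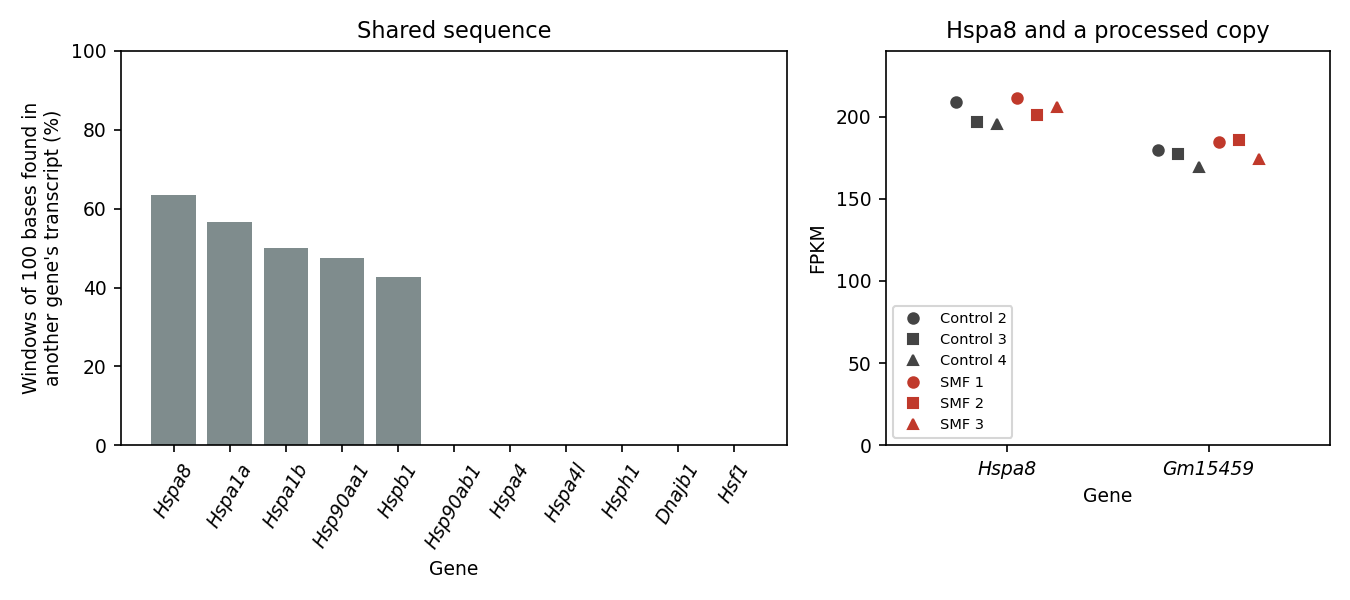
Left, percent of the 100-base windows of each member and of Hspa1a found in a transcript of another gene; right, FPKM of Hspa8 and its copy Gm15459 in each Control (grey) and SMF (red) library. Hspa8 (63.4%), Hspa1b (49.9%), Hsp90aa1 (47.6%) and Hspb1 (42.7%) share windows and 6 members share none of this length. Gm15459 stands at 169 to 186 FPKM.

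The most heat-responsive members gave almost no reads. Hspa1b (ENSMUSG00000090877), which encodes an inducible HSP70 hardly made without stress, had 1, 0 and 2 reads in Control 2, 3 and 4 and 1, 2 and 7 reads in SMF 1, 2 and 3. Most of the SMF reads came from SMF 3, and the groups overlapped. The pooled 3 control and 10 SMF reads gave an SMF to control ratio of 3.4 after scaling to the library totals, with an exact 95% interval of 0.88 to 19.25 that covers counting error only. Its twin Hspa1a had 0 reads in all 6 libraries. Hspb1 (ENSMUSG00000004951), the small heat shock protein HSP25 that holds unfolded proteins in soluble form, was listed at 0 in every library. A count of 0 over the group allowed up to 0.0561 FPKM in control and 0.0573 FPKM in SMF libraries, taking 3 reads as the limit. Hspa1l, the testis-type HSP70 of the same gene cluster, was picked out after its values were seen: it had 0, 0 and 0 control reads and 6, 9 and 1 SMF reads. The pooled 16 SMF reads stood 5.45-fold above a floor of 3 reads over the control group, scaled to the library totals. That ratio leaves out the counting error of the SMF reads and is no lower bound. The 95% counting intervals were 0 to 0.0712 RPM in control and 0.1802 to 0.5118 RPM in SMF libraries. Hspa1l was below the filter, and this difference was not tested.

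Promoter sequence was at hand for 6 members in the RefSeq table on build GRCm38.p6, which covers 250 bases before to 50 after a start site. Shown here are stretches of 70 bases that hold a heat shock element of 2 units, GAANNTTC or TTCNNGAA, in capitals. The genes were chosen for holding the element with few or no assigned reads (Hspa1b, Hspa1a, Hspb1) or with a moderate level (Hsph1). The stretches end 66, 66, 69 and 1 bases before the start site (for Hsph1 the first listed of its starts), and each is written 5′ to 3′ on the strand of its gene.
Hspa1b: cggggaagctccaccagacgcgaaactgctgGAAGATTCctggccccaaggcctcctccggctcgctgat
Hspa1a: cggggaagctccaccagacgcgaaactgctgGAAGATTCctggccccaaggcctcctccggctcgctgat
Hspb1: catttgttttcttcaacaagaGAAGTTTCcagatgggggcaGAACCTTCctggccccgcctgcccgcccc
Hsph1: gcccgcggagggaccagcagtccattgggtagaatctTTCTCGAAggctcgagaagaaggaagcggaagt

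They lie at chr17:34959304-34959373 (minus strand), chr17:34972222-34972291 (minus), chr5:135887781-135887850 (plus) and chr5:149636337-149636406 (minus). The 2-unit letters occur, on either strand, in 15.1% of the 32851 promoters of the table, and a 3-unit element, GAANNTTCNNGAA or TTCNNGAANNTTC, in 0.6%. A 3-unit match contains 2-unit matches. Among these 6 members only Hsph1 held the 3-unit element, just after its start sites. The windows of Hspa4, Hspa4l and Dnajb1 held no 2-unit match, which says only that these letters are not there. A match is a description of letters, and binding of HSF1 was not measured.

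Compared by class, the constitutive genes overlapped between the groups and the summed inducible genes did not. The summed FPKM of Hspa8, Hsp90ab1 and Hspa4 was 1709 ± 11.7 in control and 1693 ± 5.40 in SMF libraries (SD, n = 3). Summed FPKM of the 6 inducible genes was 149.98, 144 and 152 in the control and 133, 140 and 139 in the SMF libraries. The SMF sums lay below the control sums, and the inducible share of all chaperone FPKM was 8.01% ± 0.20 in control and 7.51% ± 0.17 in SMF libraries. Hsp90aa1 carries most of that sum, so the split is mainly that of this gene, with Hspa4l. On the mean of log2(FPKM + 1), where each gene counts alike, the difference inducible minus constitutive was -4.857 ± 0.021 in control and -4.885 ± 0.037 in SMF libraries, and the groups overlapped. Without Hspa1b, whose 10 SMF reads include 7 in SMF 3, the difference was -4.2002 ± 0.020 in control and -4.2495 ± 0.027 in SMF libraries, and the groups no longer overlapped. Without Hspa4l instead, it was -5.1654 ± 0.015 in control and -5.1666 ± 0.037 in SMF libraries, and the groups overlapped. Of the 4 tested inducible genes 1 lay above 0 (Dnajb1), with a median log2 difference of -0.10. Of the 3 constitutive genes 1 lay above 0 (Hspa8), with a median of -0.02. With the GC content and length correction in limma, the medians were -0.024 for the inducible and -0.018 for the constitutive genes. The sums, shares and differences of means above carry no such correction. No test of the class difference was made.

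**Figure D4:**
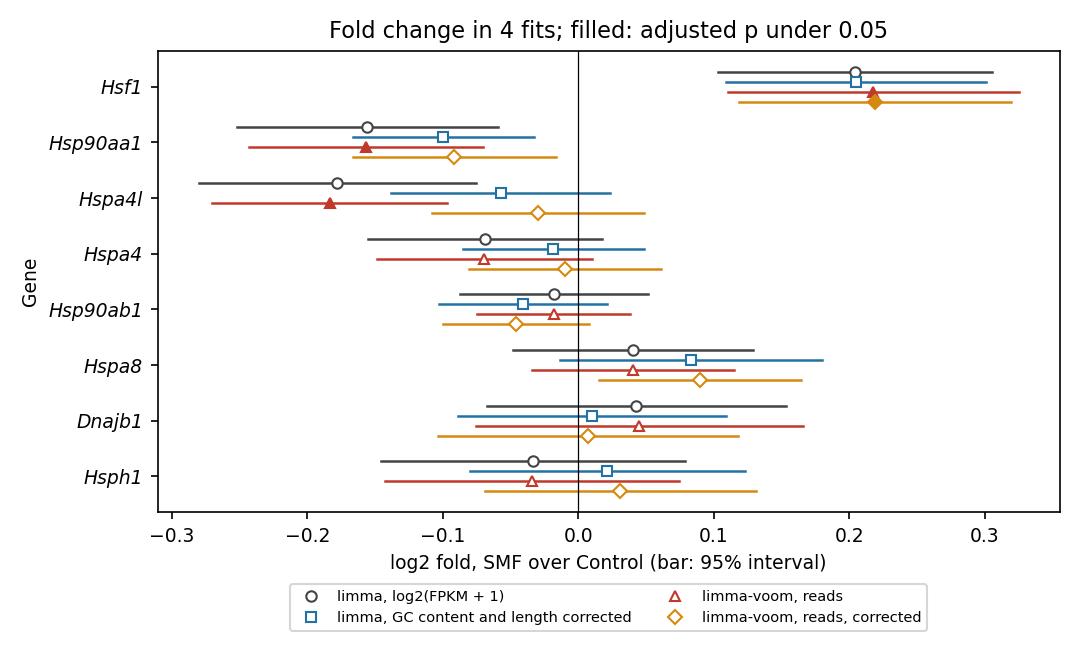
Log2 fold of SMF over Control for each tested member with its 95% confidence interval, by limma and by limma-voom, each without and with the GC content and length correction; filled markers have an adjusted p under 0.05. Hsf1 is at 0.20 to 0.22 in each, while Hspa4l moves from -0.18 to -0.03 between limma-voom without and with the correction.

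The wider chaperone network was read from 8 lists of 62 genes, of which 59 were in the files and 51 were tested. By limma 0 of 51 were called, 9 had an unadjusted p under 0.05 (17.6%, beside 18% of all genes), and the groups did not overlap for 5 higher and 6 lower genes (21.6%, beside 23.7%). The median difference was 0.01, with 28 above 0 and 23 below. Among the other HSP70 genes, 0 of 4 tested were called, and the most abundant were Hspa14 (14 and 14.3 FPKM in control and SMF) and Hspa2 (4.97 and 4.98 FPKM). Of the small heat shock proteins 0 of 4 were called, led by Cryab at 49.6 and 52.9 FPKM and Hspb8 at 26.4 and 28.1 FPKM. Both stood above Hspb1, the member of that family listed at 0.

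The J-proteins, which hand clients to HSP70, had 0 of 7 called, with Dnaja2 at 78.8 and 74.7 FPKM and Dnajc7 at 18.3 and 17.96 FPKM. Among the HSP70 cochaperones 0 of 8 were called, led by the exchange factor Bag1 at 111 and 114 FPKM and the ubiquitin ligase Stub1 at 53.2 and 53.4 FPKM. Of the 13 HSP90 cochaperones 0 were called. Stip1, which links HSP70 with HSP90, had 241 and 237 FPKM, and the immunophilin Fkbp4 had 165 and 169 FPKM. Relatives and partners of HSF1 gave 0 calls among 3 tested: the HSF1 inhibitor Hsbp1 had 46.8 and 48.7 FPKM and Hsf4 had 3.82 and 4.16 FPKM. Chaperones of the endoplasmic reticulum and mitochondria gave 0 of 4, with Hspa9 at 195 and 186 FPKM and Hspa5 at 149 and 152 FPKM.

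Of 8 other heat-induced genes 0 passed in limma, with the mitochondrial chaperonin Hspd1 at 213 and 198 FPKM. Ubb, a polyubiquitin gene, had 181 ± 12.8 and 212 ± 14.2 FPKM (SD, n = 3). Limma-voom called it higher (adjusted p = 0.0164), together with the collagen chaperone Serpinh1 (157 ± 4.26 and 176 ± 5.72 FPKM; limma-voom, adjusted p = 0.0218). These 2 were the only limma-voom calls among the 51 tested genes of the wider list, beside 4.26% of all tested genes. With the GC content and length correction neither passed (limma-voom, adjusted p = 0.102 and 0.256). Serpinh1 was named for that call, after its values were seen.

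Across the 6 libraries some members moved together, described here by Pearson's r of log2(FPKM + 1) over 6 points that share their library totals. Hspa8 and Dnajb1 had r = 0.97, and Hspa8 and Hsp90ab1 had r = -0.97. These values were 0.965 and -0.975 after the group means were removed, so they describe library-to-library variation inside the groups. Hsp90ab1 and Dnajb1 had r = -0.975, and -0.998 after that step, the strongest value among all pairs of tested members. Hsp90aa1 and Hspa4l had r = 0.98, and 0.92 after that step. The pairs named here are a selection from all pairs. Hsp90aa1 and Hsf1 had r = -0.87, which became -0.19, so that their opposition lay between the groups. Both were already apart between the groups in opposite directions, so a strong r of that sign follows. The genes most like Hsf1 were Lyrm4 (r = 0.99), Spata20 (0.99) and Mrpl38 (0.99), and those most like Hspa8 were Cbs (0.995), Prdx5 (0.99) and Pard6a (0.99), each over 6 libraries. They were picked as the highest r among all tested genes with a symbol, so high values follow in part from the picking. For these genes r after removal of the group means was not computed. Likeness to Hspa1b was not computed, because that gene was below the filter.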

How the data were processed

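Poly(A) RNA was sequenced from 3 Control and 3 SMF libraries, grouped by their titles. The authors deposited FPKM per gene for each library. Per the submitters' processing notes, the tools were Bowtie2 2.2.3 and HISAT2 2.1.0 (roles unstated) and the build GRCm39. Not given in the sources used here are the counting tool, the annotation and the handling of multiply matching reads. The labels state no strand marking, so reads of overlapping or antisense genes cannot be told apart. Among the members only Hspa8 overlaps another annotated gene, small nucleolar RNA genes on its own strand.

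Symbols came from GENCODE M21, which named 23529 of 23886 identifiers. It is on another build, so it served for symbols, GC content, length and sequence only. Promoters came from RefSeq (GRCm38.p6). Whole reads were recovered from the FPKM steps: 97.9% to 98.0% of values were whole at the M21 length within a tolerance of 0.02 reads. Intervals and floors cover counting error only.

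Genes with FPKM of at least 1 in at least 3 libraries were tested two-sided on log2(FPKM + 1) with limma 3.58.1 (R 4.3.3), Benjamini-Hochberg adjusted, threshold 0.05. An alternative was limma-voom on 11107 genes with whole reads. Its loess correction (span 0.3) for GC content and length, its further refits and the sum of Hspa8 with Gm15459 were chosen after seeing the data. Alternatives covered the pseudocount, filter, scaling, replicate block and leaving out each library. Python 3.11.15 was used for the other steps and matplotlib 3.10.9 for plots.

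All 10 members were named, and from each wider list the members past the threshold or else the 2 with the highest mean FPKM. Also named were Hspa1a and the 3 genes most like each of Hsf1 and Hspa8. The rule also asked for those most like Hspa1b, which was below the filter. Members and lists were chosen with earlier results of these data known.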

Additional observations from a re-analysis of the deposited data

How the results depend on the processing

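Each tested member was refitted under 18 alternatives, and Hsp90ab1, Hspa4, Hsp90aa1, Hspa4l, Dnajb1 and Hsf1 kept their sign in all of them, although Hspa4l crossed 0 in 1 refit outside these 18, given below. By limma, 0 members, 0 genes of the wider list and 0 of all genes were called. Limma-voom called 3 members, 2 genes of the wider list and 473 of all genes, and with the GC content and length correction 1 member and 93 of all genes. Over all genes, a filter of 5 FPKM gave 8 calls, the replicate block 19, and leaving out 1 library 0 to 3. The number of members whose groups did not overlap was 3, and 3 to 6 with 1 library left out, where the share of all genes was 30.0% to 43.9%. It was 4 after rescaling to TPM, which gives every library the same sum, beside 22.8% of all genes. With that scaling the log2 difference was 0.007 for Hspa8 and -0.052 for Hsp90ab1 (limma, adjusted p = 0.938 and 0.407). The 3 limma-voom calls among the members became 0 to 3 with 1 library left out and 0 with the replicate block, and the corrected count became 0 to 1 with 1 library left out. In the block fits Control 4 and SMF 1 shared their number with no other library and added nothing to the difference between the groups. Deviations from the group means had r = 0.058 and 0.046 between libraries of different groups that share a replicate number. Libraries with different numbers had r from -0.148 to 0.107. With so few libraries these values cannot decide whether the numbers pair them. Values near 0 changed sign: Hspa8 to -0.021 with quantile normalization, and Hsph1 to 0.023 with the replicate block, 0.022 with the GC content and length correction, 0.031 with that correction in limma-voom, and -0.0549 to 0.00575 with 1 library left out. Hspa4l by corrected limma-voom ran from -0.0459 to 0.00272 with 1 library left out. The difference of the inducible from the constitutive class was -4.87, -5.17 without Hspa4l and -4.22 without Hspa1b, which follows from which genes are averaged, and the groups were apart only in the last. For the other changes the cause was not tested. Hspa1b rests on 3 control and 10 SMF reads, and Hspb1 on 0.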
